A study of Mus musculus with 2 samples.

Results

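The EGF family was examined as 7 ligand genes and 3 receptor genes in lung organoids grown with or without IL-1β. The ligands were epiregulin (Ereg), amphiregulin (Areg), heparin-binding EGF-like growth factor (Hbegf), transforming growth factor α (Tgfa), neuregulin 1 (Nrg1), betacellulin (Btc) and epigen (Epgn), and the receptors were Egfr, Erbb2 and Erbb3. The 10 genes were taken by symbol from the 27998 genes measured, and all 10 had counts in both libraries. The rule used symbols alone, but the set was chosen with earlier results of these data known. Their levels were compared between the epithelial and stromal cells of each culture, between epithelial classes, and between the IL-1β and control libraries.

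Lineage-labelled alveolar type 2 (AT2) cells, the surfactant-making progenitors of the alveolus, came from mice carrying SPC-CreERT2 and a R26R-tdTomato reporter, in which tamoxifen-activated Cre under the Sftpc (SPC) promoter marks AT2 cells and their descendants. They were mixed in Matrigel with lung stromal cells that had been depleted of CD31+, EpCAM+ and CD45+ cells and then kept in culture, so the stroma was not freshly isolated. Control organoids received PBS and the others IL-1β, the cytokine whose effect on AT2 cell fate the study addressed. The dose is given as 10 ng/mL in one place and 20 ng/mL in another, and the culture time as 21 days or 2 weeks. Lineage tracing mice were on a C57BL/6 background and mostly 6 to 10 weeks old, and the number of animals behind these cultures is not given in the sources used here. Each condition was 1 droplet scRNA-seq library, so differences between conditions have no replicate check and cannot be told apart from differences between 2 cultures or 2 library preparations.

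EGF family ligands are made as membrane-anchored precursors that are cut at the cell surface by sheddases such as ADAM17. Ereg, Areg, Hbegf, Tgfa, Btc and Epgn bind EGFR, Ereg, Hbegf and Btc can also bind ERBB4, and Nrg1 binds ERBB3 and ERBB4. ERBB2 has no known ligand and acts as a partner of the others, and ERBB3 has little kinase activity of its own and relies on a partner. In the lung these ligands pass signals within the epithelium and between epithelium and mesenchyme, and EGFR signalling is known for its part in epithelial repair after injury.

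Genes for 4 of the 7 ligands lie side by side on mouse chromosome 5 (GRCm38, GENCODE M21 annotation). Epgn spans chr5:91027464-91035215 and Ereg chr5:91074622-91093646, with Areg at chr5:91139599-91148432, all on the forward strand, and Btc lies at chr5:91357261-91402994 on the reverse strand. The intervals between neighbours were 39407, 45953 and 208829 bp, and the 375531 bp from Epgn to Btc held no other protein-coding gene. RefSeq promoters on GRCm38.p6, from 250 bases before to 50 after the gene's start, were matched for 6 of the 10 members (Epgn, Areg, Btc, Tgfa, Egfr and Erbb2), and the 3 of the chromosome 5 ligands are shown because the expression of these neighbours is set side by side in what follows. Each sequence is printed 5′ to 3′ on the gene's own strand, with capitals marking the matched motifs, Epgn at chr5:91027267-91027566 (+), Areg at chr5:91139349-91139648 (+) and Btc at chr5:91402945-91403244 (-).
Epgn: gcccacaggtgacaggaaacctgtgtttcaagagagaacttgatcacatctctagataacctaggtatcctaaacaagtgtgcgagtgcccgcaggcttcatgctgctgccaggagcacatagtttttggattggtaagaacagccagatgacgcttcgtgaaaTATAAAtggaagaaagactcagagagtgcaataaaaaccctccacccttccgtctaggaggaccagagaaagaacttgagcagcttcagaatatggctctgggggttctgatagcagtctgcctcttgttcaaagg
Areg: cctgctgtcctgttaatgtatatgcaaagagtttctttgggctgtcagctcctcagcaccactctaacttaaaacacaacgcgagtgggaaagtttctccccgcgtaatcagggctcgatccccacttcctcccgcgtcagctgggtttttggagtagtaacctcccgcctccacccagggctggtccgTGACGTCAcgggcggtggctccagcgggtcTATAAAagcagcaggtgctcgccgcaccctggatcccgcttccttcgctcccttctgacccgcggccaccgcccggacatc
Btc: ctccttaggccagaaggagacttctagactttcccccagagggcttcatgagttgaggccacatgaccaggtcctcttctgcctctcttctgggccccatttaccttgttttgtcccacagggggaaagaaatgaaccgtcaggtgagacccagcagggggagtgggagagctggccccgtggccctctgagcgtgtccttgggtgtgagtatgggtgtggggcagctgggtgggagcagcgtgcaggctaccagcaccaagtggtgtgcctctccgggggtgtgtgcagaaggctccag

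Both strands of the 6 promoters were searched for TGACGTCA, the cAMP response element, for TGANTCA, the AP-1 site, for TATAAA, the TATA box, and for the NF-κB consensus. These were found in 1.79%, 7.81%, 13.6% and 4.51% of 32851 mouse promoters of the same length. The Areg promoter held TGACGTCA at -61 to -54 and TATAAA at -31 to -26, counted from the RefSeq start of the gene, which is also its GENCODE start. The Epgn promoter held TATAAA at -86 to -81 from the RefSeq start at position 91027517, which lies 53 bases inside the GENCODE gene, so the Epgn window starts and ends later relative to the gene position given above. None of the 4 motifs was found in the windows of Btc, Tgfa, Egfr or Erbb2, and no 2 of these motifs overlapped.

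The control and IL-1β libraries held 33965848 and 41220175 unique molecular identifiers (UMIs), with a median of 14613 and 11496.5 per barcode, and 2083 and 3059 cells passed the study's stated filter. Of these, 1285 and 2581 were epithelial and 798 and 478 stromal by cluster. The 7 stromal markers summed to 9465 and 14339 counts per 1000000 UMIs (CPM) in the stroma against 1005 and 772 in the epithelium, and the 4 epithelial markers to 1082 and 1516 CPM in the epithelium against 61.3 and 98.7 in the stroma. Epithelial clusters were named from fixed markers as AT2-like (701 control and 2035 IL-1β cells), AT1-like (220 and 388), cycling-like (84 and 4), airway secretory-like (0 and 14) and DATP-like (0 and 102), DATPs being the damage-associated transient progenitors that the study placed between AT2 cells and the flat alveolar type 1 (AT1) cells of gas exchange. The DATP markers summed to 8737 CPM in the DATP-like cells against 1625 and 3097 in AT1-like cells, but the class was not stable, since 25 control and 1 IL-1β cells took the name with another random seed and none at a lower clustering resolution. AT2-like was the name left when no other class scored, so it does not set apart the primed AT2 state that the study described in its IL-1β organoids. In AT2-like cells the 8 AT2 markers summed to 138473 CPM in control and 102172 CPM with IL-1β, and Abca3 stood at 536 and 271 CPM. The part of that difference in the AT2-like ratios was not tested. Another 280 control and 38 IL-1β epithelial cells stayed unnamed. In 22 of the 24 clusters at least 95% of cells came from 1 library, so a named class was compared between conditions across different clusters.

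Values are CPM of UMIs summed over the cells of a class, with exact Poisson 95% intervals in brackets, and the ratio of 2 classes has an exact interval from the binomial distribution. These intervals cover counting error only, not the spread between cultures or between cells. A ratio was called when it was at least 2-fold, its interval excluded 1 and at least 20 UMIs stood behind it. Levels of different genes were not compared with each other.

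In stromal cells, 5 of the 9 members with enough UMIs were higher in the IL-1β library and 1 was lower. Of all 12854 genes counted in that comparison 17.8% were called, 5.06% higher and 12.7% lower. The 5 higher genes were Ereg, Areg, Nrg1, Btc and Erbb3, the lower gene was Tgfa, and Hbegf, Egfr and Erbb2 were not called. The median log2 ratio of the 9 members was 1.14, against -0.33 over all genes counted. Scaling the ratios by their median left 6 members called in stroma, while it moved the higher share of all stromal calls from 28.4% to 49.0%.

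Ereg, a ligand of EGFR and ERBB4, was the most stroma-weighted of the ligands in both libraries. Its level was 55.5 CPM [51.6 to 59.6] in control stroma and 231 CPM [221 to 240.5] in IL-1β stroma, from 756 and 2190 UMIs, a ratio of 4.16 [3.83 to 4.52]. It was detected in 27.2% of control and 65.9% of IL-1β stromal cells, at median depths of 15741 and 14828 UMIs, and in 14.5% and 42.4% when each cell was thinned to 5000 UMIs. Stromal cells were 38.3% and 15.6% of all cells and held 94.7% and 89.0% of the Ereg UMIs.

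Epithelial Ereg was low in both libraries. The level was 2.19 CPM in control and 8.68 CPM in IL-1β epithelium, a ratio of 3.96 [2.86 to 5.63], and 3.27% and 8.83% of epithelial cells had a UMI (0.799% and 4.08% thinned) at median depths of 13923 and 11300 UMIs. These levels were 3.95% and 3.76% of the stromal level, while the stromal genes Col1a1, Col1a2, Col3a1 and Dcn stood in epithelial cells at 2.00% to 2.61% and 1.65% to 2.40% of theirs. Sparc, which had also been set for this gauge, stood well above that range, at 24.1% and 13.5%. It is left out of the matrix gene ranges given later for single classes. RNA released from broken cells also enters other droplets, and its part in the epithelial Ereg counts was not tested. The ratio of 3.96 is therefore not an exact fold of expression in these cells. Among IL-1β epithelial classes Ereg was 28.8 CPM [19.8 to 40.4] in DATP-like cells, of which 1 cell gave 11 of the 33 UMIs, then 8.0 CPM in AT2-like and 7.37 CPM in AT1-like cells, whose intervals overlapped. The AT1-like ratio of 2.33 [1.14 to 5.24] was no longer called without the cells of highest doublet score.

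**Figure D1:**
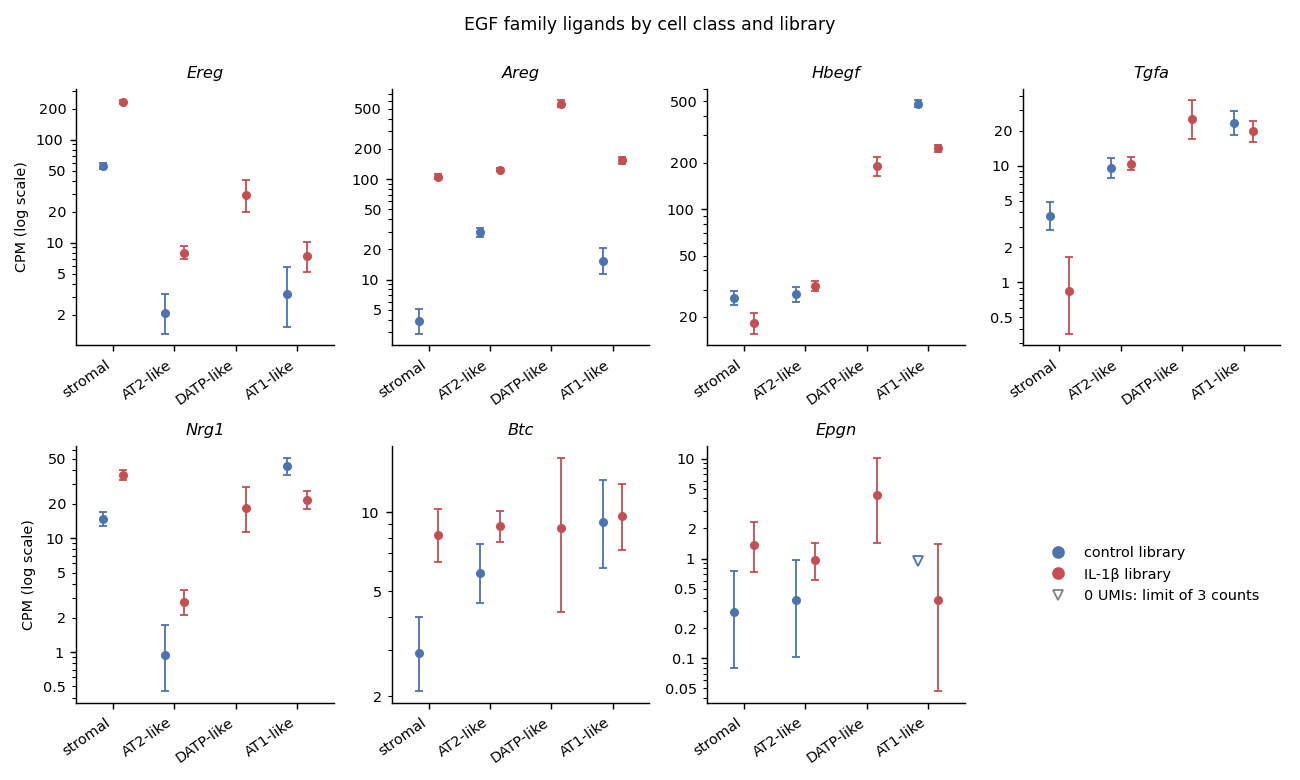
Levels of the 7 EGF family ligands (CPM, log axis, with a scale of its own for each gene) by cell class, in blue for the control and red for the IL-1β library, with exact Poisson 95% intervals as bars and an open triangle for the limit set by 0 UMIs. Ereg stands highest in stroma in both libraries, Hbegf highest in AT1-like cells in both, and Areg reaches 559.8 CPM in DATP-like cells.

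Areg, a ligand of EGFR, was mainly an epithelial transcript in the control culture and stood in both compartments of the treated culture. In stroma it was 3.89 CPM [2.91 to 5.09] in control, from 53 UMIs of which 19 came from 1 cell, and 106 CPM [99.3 to 112] with IL-1β, from 1004 UMIs. The ratio was 27.2 [20.6 to 36.6], and the share of stromal cells with a UMI was 2.88% in control and 28.7% with IL-1β (1.28% and 15.5% thinned), while 21.7% and 51.7% of epithelial cells had one. Stromal Areg was 10.3% of the epithelial level in control, next to 3.87% to 4.58% for the AT2 genes Sftpc, Sftpa1, Sftpb and Lamp3. With IL-1β it was 74.0% over all stroma, and 15% outside a cluster led by Mmp10 and described later, where the AT2 genes stood at 7.83% to 9.14%. The part of released epithelial RNA in these counts was not tested. Stroma held 6.84% of all Areg UMIs in control and 18.4% with IL-1β.

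Epithelial Areg was also higher in the IL-1β library, in each named class present in both libraries with enough cells. AT2-like cells had 29.5 CPM [26.3 to 32.9] in control and 124 CPM [119 to 128] with IL-1β, a ratio of 4.19 [3.73 to 4.73]. The highest control level was in the unnamed cells, at 71.9 CPM [63.6 to 81.0], which were 13.4% of control cells and held 34.7% of the control Areg UMIs, followed by cycling-like cells at 53.6 CPM [43.4 to 65.7]. With the unnamed control cluster led by Scgb1a1 counted as AT2-like the ratio was 3.04 and still called. AT1-like cells had 15.5 CPM [11.5 to 20.5] and 153 CPM [143 to 164], a ratio of 9.89 [7.40 to 13.5]. That ratio was called under all 9 alternatives but ran from 2.92 to 14.7, and 1 cell gave 13 of the 49 control UMIs. The order of the 2 classes differed between libraries, with AT2-like above AT1-like in control and AT1-like above AT2-like with IL-1β. Neither pair of intervals overlapped, but neither AT1-like to AT2-like ratio reached 2-fold, so neither was called. The AT1-like to AT2-like ratio of Areg in control, 0.526 [0.381 to 0.713], stayed below 1 under 10 of 11 alternatives but was 1.49 without the cells of highest doublet score, and that of the IL-1β library ran from 1.01 to 1.53 over 9. Areg was detected in 21.4% and 50.5% of AT2-like cells (10.3% and 33.8% thinned) and in 11.8% and 54.1% of AT1-like cells (4.76% and 36.1% thinned). Among the clusters that made up the IL-1β AT2-like class, Areg was 225 CPM in the cluster led by BC030867 and Fgl1, 158 CPM in that led by Cxcl5 and Slc26a4 and 59.9 CPM in that led by Dmkn and Cd177. The main control AT2-like cluster, led by Bex2 and Acoxl, stood at 28.9 CPM, below all 3.

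A cluster of 76 IL-1β stromal cells led by Mmp10 and Il11, a matrix protease and a cytokine of the IL-6 family, carried much of the stromal ligand signal. It was 15.9% of the stromal cells of that library and held 51.8% of the stromal Ereg UMIs, 83.0% of Areg, 69.4% of Nrg1 and 51.3% of Btc, but 12.1% of Hbegf and 16.6% of Egfr. Areg was among its leading genes although the family genes were left out of the clustering. Clusters within the stroma were made in the main setting alone, so whether this cluster holds with another seed or resolution was not tested.

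In this cluster Ereg was 739 CPM [697 to 784], against 133 CPM [125 to 141] in the other 402 stromal cells of the library. Areg was 543 CPM [507 to 581] against 21.5 CPM [18.4 to 24.9], and Nrg1 was 154 CPM [135 to 175] against 13.1 CPM [10.7 to 15.8]. For these 3 ligands, and for Btc at 26.1 CPM [18.6 to 35.5] against 4.77 CPM [3.38 to 6.55], the intervals did not overlap. The receptors did not follow this pattern, since Egfr was 55.4 CPM against 53.5, Erbb2 11.7 against 9.80 and Erbb3 4.56 against 4.90, all with overlapping intervals. Tgfa had 0 UMIs in the cluster and 8 UMIs in the other cells.

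Ereg and Areg transcripts were found in most cells of the cluster but were unevenly shared among them. A cell had a median of 6 Ereg, 2 Areg and 2 Nrg1 UMIs, below the means of 14.92, 10.96 and 3.11. The cell with the most gave 7.85% of the cluster's Ereg and 13.6% of its Areg UMIs. For Nrg1 and Btc the top cell gave 13.1% and 22.5%. Ereg was detected in 67 of the 76 cells, Areg in 49, both in 45 (59.2%) and neither in 5, and 42 cells (55.3%) had 3 or more of the 7 ligands.

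Without this cluster the stromal ratio of Ereg was 2.39 and that of Areg 5.52, both still called. The ratio of Nrg1 was then 0.890, on the other side of 1, and that of Btc was no longer called. The stromal Areg level relative to the epithelium in the IL-1β library was 0.740 [0.691 to 0.793] with the cluster and 0.150, then called lower, without it. Of the IL-1β stromal Areg UMIs outside the Mmp10 cluster, 51 lay in 26 cells of a mixed cluster that carried AT2 markers. The 17 control cells of that mixed cluster had 0 Areg UMIs. The Areg values of 5.52 and 0.150 include the mixed cluster and are not exact measures of stromal expression. Areg without both clusters was not tested.

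**Figure D2:**
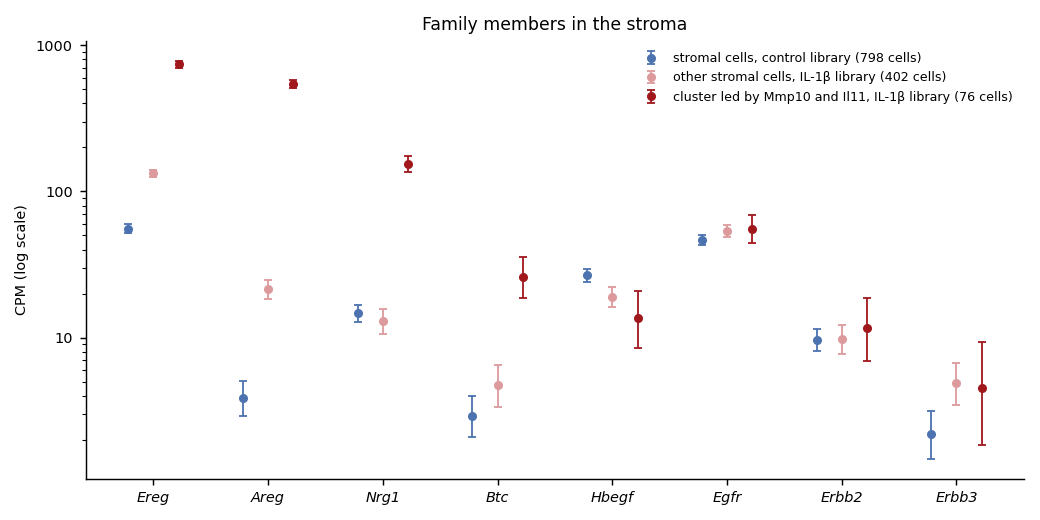
Levels of 8 members (CPM, log axis) in control stroma, in the cluster led by Mmp10 and Il11 and in the other stromal cells of the IL-1β library, with exact Poisson 95% intervals as bars. The cluster stands at 739 CPM for Ereg, 543 CPM for Areg and 154 CPM for Nrg1, above both other groups, while its interval for Egfr overlaps theirs.

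Apart from the mixed cluster that carried AT2 markers, the stromal cluster led by Ctla2a was the only cluster with less than 95% of its cells from 1 library, 86 being control and 21 IL-1β cells. In control it was 10.8% of stromal cells and held 53.7% of the stromal Ereg UMIs, 53.0% of Hbegf and 47.0% of Nrg1. Its Ereg level was 195 CPM in control and 109 CPM in IL-1β cells, a ratio of 0.559 [0.426 to 0.724], below 1 where the ratio of the whole stroma was above it. Nrg1 was 45.2 and 16.0 CPM, a ratio of 0.355 [0.165 to 0.682], and Egfr 73.5 and 35.3 CPM, a ratio of 0.480 [0.292 to 0.753]. Hbegf stood at 99.5 CPM over both libraries in this cluster, against 9.28 to 13.7 CPM in the other 6 stromal clusters of at least 76 cells, with an IL-1β to control ratio of 1.31 [0.994 to 1.72] that was not called. The cells of the 2 libraries in this cluster were not alike in markers. Contractile markers summed to 2667 CPM in its control and 749 CPM in its IL-1β cells, matrix fibroblast markers to 1033 and 5587 CPM, and endothelial markers to 1.92 and 337 CPM, the latter from 210 UMIs in 4 of the 21 cells. Their part in the ratios of this cluster was not tested. Over the whole stroma, markers of contractile stroma summed to 562 CPM in control and 54.4 CPM in IL-1β stroma, with Des and Actg2 at 0 in the latter, and matrix fibroblast markers to 1177 and 6518 CPM. Their part in the stromal ratios was not tested.

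Markers of blood-derived cells were low in the stroma. The 7 macrophage markers summed to 25.4 and 17.6 CPM, and in IL-1β stroma Ptprc, Adgre1, C1qa and Il1b were at 0. A macrophage cluster of 4 control cells, led by Wfdc17 and Ccl6, was counted as stroma. It held 169 of the 346 macrophage marker UMIs of control stroma, at 2915 CPM. The 6 lymphoid markers summed to 5.72 and 22.2 CPM, with Ptprc and Cd3e at 0 in IL-1β stroma. Endothelial markers summed to 2.49 and 25.4 CPM.

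Nrg1, the family's ligand of ERBB3, had its higher levels in stromal and AT1-like cells. In stroma it was 14.7 CPM [12.7 to 16.9] in control and 35.8 CPM [32.1 to 39.8] with IL-1β, a ratio of 2.44 [2.04 to 2.92] that rested on the Mmp10 cluster as described. In AT1-like cells it was 42.7 CPM [35.8 to 50.6] and 21.7 CPM [17.9 to 26.1], a ratio of 0.508 [0.392 to 0.658] that just missed 2-fold. Thus AT1-like cells stood above stroma in control and below it in the IL-1β library, with no overlap of intervals in either. Without the Mmp10 cluster the IL-1β order was the other way, since the other stromal cells had 13.1 CPM [10.7 to 15.8]. In AT2-like cells it was 0.95 CPM and 2.77 CPM, from 10 and 66 UMIs, and although this ratio of 2.91 [1.49 to 6.35] was called, the call held under 4 of 12 alternatives, none of them with a changed clustering. These AT2-like levels were 6.48% and 7.72% of the stromal levels, above the 2.00% to 2.71% and 1.62% to 2.48% of the 4 stromal matrix genes. RNA from AT1-like cells was not part of this gauge, and the part of released RNA in the AT2-like Nrg1 counts was not tested.

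Btc, a ligand of EGFR and ERBB4, was 2.93 CPM [2.10 to 4.0] in control and 8.21 CPM [6.49 to 10.3] in IL-1β stroma, a ratio of 2.80 [1.89 to 4.21] from 40 and 78 UMIs. The call was lost when cells were thinned and without the Mmp10 cluster. In AT2-like cells Btc was 5.89 and 8.84 CPM and in AT1-like cells 9.18 and 9.69 CPM, with ratios of 1.5 [1.13 to 2.03] and 1.06 [0.655 to 1.73] that were not called.

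Tgfa, a ligand of EGFR, was the only ligand called lower in IL-1β stroma, at 3.74 CPM [2.79 to 4.92] in control and 0.842 CPM [0.364 to 1.66] with IL-1β, from 51 and 8 UMIs, a ratio of 0.225 [0.0923 to 0.478]. The IL-1β level was 6.65% of the epithelial level, below the 7.44% to 8.47% of the 4 AT2 genes, and 4 of the 8 UMIs lay in the mixed cluster that carried AT2 markers, so the ratio is not an exact fold of stromal expression. Epithelial Tgfa was 12.6 and 12.7 CPM, a ratio of 1.00 [0.853 to 1.18]. Stroma held 17.4% of the control and 1.99% of the IL-1β Tgfa UMIs, a share that also reflects the smaller number of stromal cells.

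Epgn was close to the limit of detection, with 54 UMIs over both libraries. It had 4 and 13 UMIs in stroma, too few for a call, and 7 and 30 in epithelium, where 0.365 and 0.965 CPM gave a ratio of 2.64 [1.14 to 7.13] that was called. No Epgn UMI was found in control AT1-like cells, which allows up to 0.95 CPM.

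Hbegf, a ligand of EGFR and ERBB4, had more of its UMIs in AT1-like cells than in any other class in both libraries. It was 480.5 CPM [457 to 505] in control and 247 CPM [234 to 261] in IL-1β AT1-like cells, from 1518 and 1276 UMIs. The intervals were apart, but the ratio of 0.515 [0.477 to 0.555] fell short of 2-fold, and it ranged from 0.455 to 0.671 over 9 alternatives, of which 4 gave a call. A UMI was found in 89.1% and 75.0% of AT1-like cells (75.7% and 55.4% thinned).

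AT1-like cells were 10.6% of control and 12.7% of IL-1β cells and held 61.9% and 52.1% of the Hbegf UMIs. AT2-like cells had 28.0 CPM [24.9 to 31.4] and 31.9 CPM [29.7 to 34.2], a ratio of 1.14 [0.993 to 1.31], and stroma 26.7 and 18.2 CPM, a ratio of 0.682 [0.566 to 0.820]. Neither was called. The AT1-like class came from different clusters in the libraries, led by Igfbp2 and Spock2 in control and by AW112010 and Serpinb9 with IL-1β, and the 10 AT1 markers summed to 23128 and 13035 CPM there. The part of that difference in the Hbegf and Nrg1 levels was not tested. AW112010 is also 1 of the DATP markers, at 733 CPM in IL-1β AT1-like cells and 555 CPM in DATP-like cells. The IL-1β AT1-like class was not stable either, falling from 388 to 184 cells at resolution 2.0 and to 185 with libraries clustered separately. At resolution 0.5 and with every barcode kept it fell to 6 cells. Ratios of this class were not taken in the latter settings, which are not among the alternatives counted for them.

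**Figure D3:**
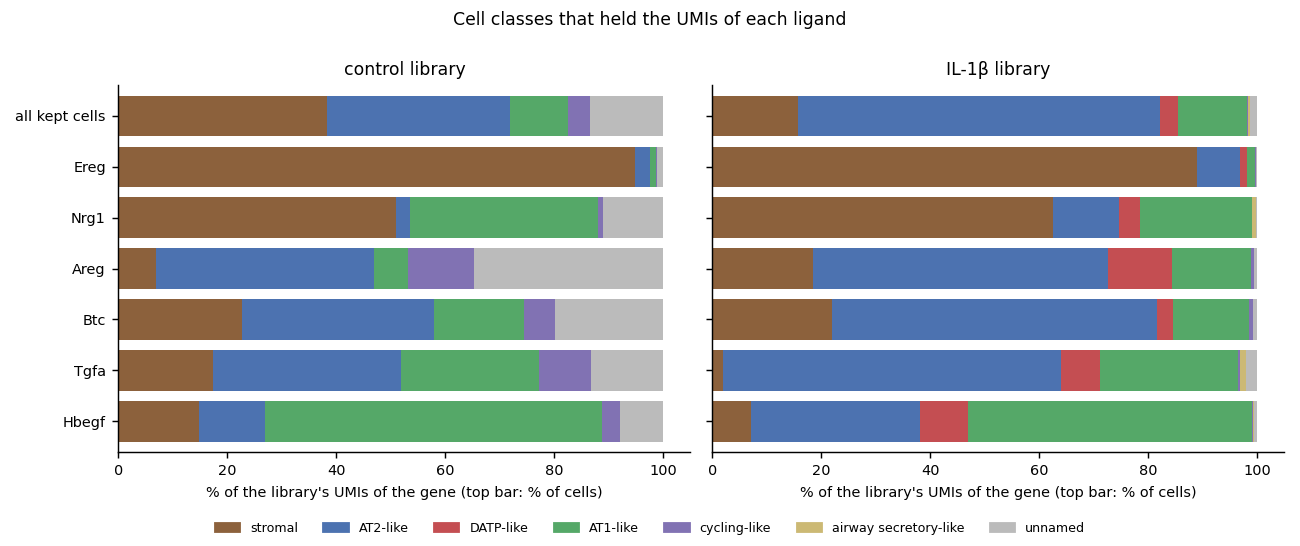
Share of the UMIs of 6 ligands (percent of the gene's UMIs in the library) by cell class, in 1 panel per library, with the share of all kept cells as the top bar. Stroma supplies 94.7% and 89.0% of Ereg, AT1-like cells 61.9% and 52.1% of Hbegf, and AT2-like cells 40.0% and 54.1% of Areg.

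DATP-like cells, all from the IL-1β library, were compared with AT2-like cells of the same library. There 6 of the 7 ligands were called higher and no receptor was called, whereas 12.0% of all 12158 genes counted were called, 8.44% higher and 3.59% lower. The median log2 ratio of the ligands was 2.18, against 0.20 over all genes counted. Areg was 559.8 CPM [517 to 605] in DATP-like cells, 4.53 [4.16 to 4.94] times the AT2-like level, and Hbegf was 189 CPM [165 to 216], a ratio of 5.93 [5.08 to 6.91]. The ratios of Nrg1, Epgn, Ereg and Tgfa were 6.62 [3.85 to 11], 4.52 [1.34 to 12.2], 3.6 [2.41 to 5.22] and 2.42 [1.59 to 3.57]. Over the 7 other settings that gave at least 20 IL-1β cells of this name, 3 of them with another clustering, Areg, Hbegf and Nrg1 were called higher in all 7, Ereg in 6, Epgn in 5 and Tgfa in 4, and Areg ran from 2.31 to 4.68 times the AT2-like level. Epgn rested on 5 UMIs, 4 of them in 1 cell, and Btc did not share the direction, at 0.986 [0.466 to 1.85].

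The DATP-like cells were 3.33% of the IL-1β library and held 11.8% of its Areg and 8.86% of its Hbegf UMIs. Areg was found in 76.5% of them (65.7% thinned) and Hbegf in 66.7% (47.1% thinned), and 54 of 102 cells (52.9%) had both. Both were found in 11.4% of control and 42.3% of IL-1β AT1-like cells and in 6.85% and 15.4% of AT2-like cells. The IL-1β AT1-like cells thus lay between the AT2-like and DATP-like cells for Areg, but above the DATP-like cells for Hbegf, at 247 CPM against 189 CPM with intervals apart. AT1 markers summed to 4452 CPM in DATP-like cells, below the 13035 CPM of the IL-1β AT1-like cells.

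Between AT1-like and AT2-like cells of the control library, 5 of 9 members were called, all higher in AT1-like cells, against 28.4% of all genes counted (21.3% higher, 7.04% lower). They were Nrg1 with a ratio of 45.0 [23.7 to 95.9], Hbegf with 17.1 [15.1 to 19.5], Egfr with 4.89 [3.50 to 6.86], Tgfa with 2.44 [1.78 to 3.33] and Erbb3 with 2.12 [1.79 to 2.50]. The Erbb3 call held under 2 of 11 alternatives, that of Tgfa under 8, and those of Nrg1, Hbegf and Egfr under all 11. In the IL-1β library 3 of 10 were called higher, against 17.3% of all genes (11.6% higher, 5.7% lower), namely Nrg1 at 7.85 [5.74 to 10.8], Hbegf at 7.76 [7.09 to 8.50] and Egfr at 2.87 [1.5 to 5.35]. The Egfr ratio was taken against 29 AT2-like UMIs, at a level near that of stromal RNA in these cells, and is not an exact fold of expression. No member was called lower in AT1-like cells in either library.

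Within the epithelium as a whole, 3 members were higher in the IL-1β library, Ereg, Areg and Epgn, and Egfr was lower, out of 10 counted, when 13.9% of all genes were called (7.98% higher, 5.91% lower). In AT2-like cells the called members were Ereg, Areg and Nrg1, higher, and Egfr, lower, against a background of 14.3% (10.2% higher, 4.07% lower). In AT1-like cells they were Ereg and Areg, higher, and Egfr, lower, out of 9, against 10.2% (5.84% higher, 4.4% lower). Areg and Ereg were higher and Egfr lower in all 3 comparisons, and Hbegf, Tgfa, Btc, Erbb2 and Erbb3 were called in none. Ereg in IL-1β AT2-like and AT1-like cells was only 3.47% and 3.19% of the stromal level. Its ratios are thus not exact folds of epithelial expression, and the part of released RNA was not tested.

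**Figure D4:**
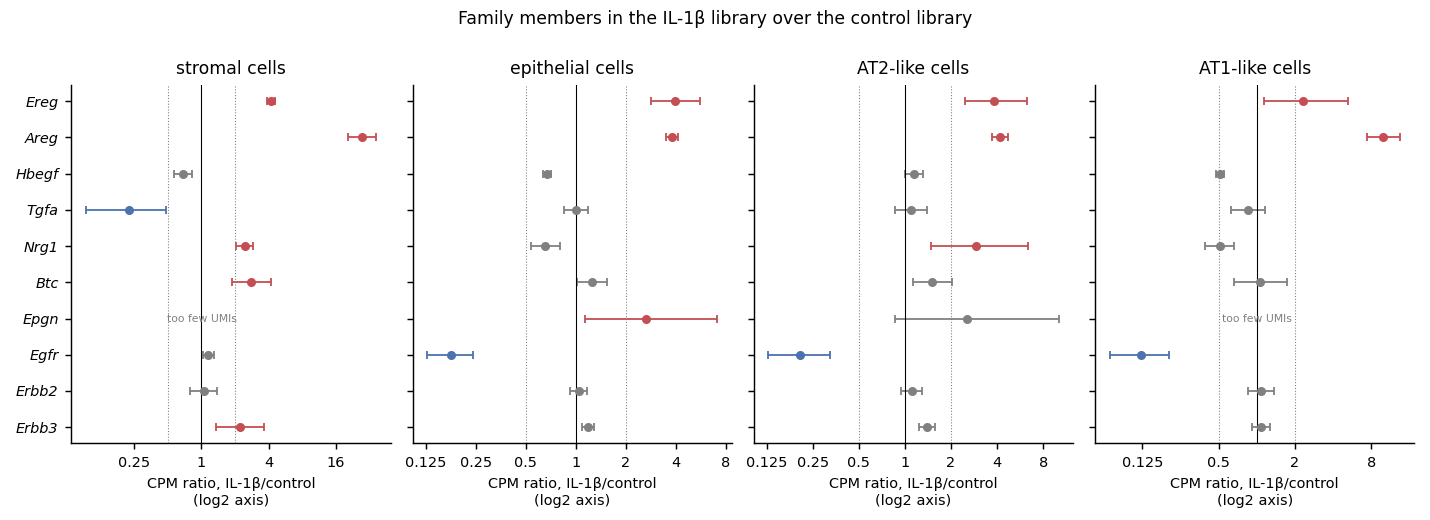
Ratio of the IL-1β to the control level of each member (log2 axis) in stromal, epithelial, AT2-like and AT1-like cells, with exact 95% intervals for counting error as bars, a line at 1, dotted lines at the 2-fold limits, and called ratios in red (higher) or blue (lower). Areg lies above 1 in all panels, Egfr lies at 0.206 in AT2-like cells, where the IL-1β counts were near the level of stromal RNA, at 0.121 in AT1-like cells and at 1.16 in stroma, and Erbb2 stays within 1.04 to 1.10.

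Egfr, the receptor of most of these ligands, was mainly a stromal transcript in both libraries. Stroma had 46.6 CPM [43.0 to 50.4] in control and 53.8 CPM [49.2 to 58.7] with IL-1β, a ratio of 1.16 [1.03 to 1.30] that was not called. A UMI was found in 44.7% and 57.1% of stromal cells (18.9% and 27.5% thinned).

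The epithelial level of Egfr was lower in the IL-1β library in both AT1-like and AT2-like cells. AT1-like cells had 28.8 CPM [23.2 to 35.4] in control, from 91 UMIs, and 3.49 CPM [2.07 to 5.51] with IL-1β, from 18 UMIs, a ratio of 0.121 [0.0687 to 0.202]. AT2-like cells had 5.89 CPM [4.52 to 7.55] and 1.21 CPM [0.814 to 1.74], from 62 and 29 UMIs, a ratio of 0.206 [0.128 to 0.325]. This is a ratio of counts and not an exact fold of expression in these cells, since the IL-1β level, as a share of the stromal level, lay within the range of stromal matrix genes. Over all epithelial cells the levels were 9.44 and 1.67 CPM, a ratio of 0.177 [0.128 to 0.242], and Egfr remained called lower under all 11 alternatives there, all 12 in AT2-like cells and all 9 in AT1-like cells. The share of AT1-like cells with a UMI was 31.8% and 4.38% (17.6% and 1.29% thinned). The AT1-like cells of the libraries came from different clusters, with AT1 markers at 23128 and 13035 CPM, and the part of that difference in the Egfr ratio was not tested.

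In the IL-1β library the epithelial Egfr counts were few enough to approach the level of stromal RNA in epithelial droplets. AT2-like cells stood at 2.26%, DATP-like cells at 3.24% from 2 UMIs, and AT1-like cells at 6.48% of the stromal Egfr level, while Col1a1, Col1a2, Col3a1 and Dcn stood at 1.62% to 2.48% of theirs in the same 3 classes. In control the Egfr values were 12.6% in AT2-like and 61.8% in AT1-like cells, and those of the 4 matrix genes 2.00% to 3.09%. The AT2-like value lay within the range of the matrix genes, the DATP-like value rested on too few UMIs to be set apart from it, and the part of stromal RNA in these counts was not tested.

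**Figure D5:**
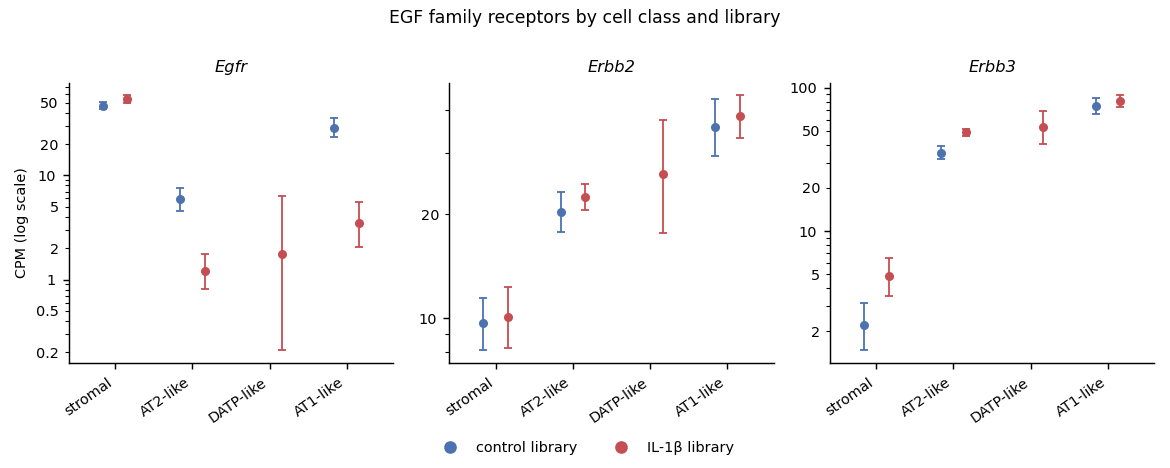
Levels of Egfr, Erbb2 and Erbb3 (CPM, log axis, with a scale of its own for each gene) by cell class, in blue for the control and red for the IL-1β library, with exact Poisson 95% intervals as bars. Egfr in AT1-like cells lies at 28.8 CPM in control and 3.49 CPM with IL-1β, while the Erbb2 and Erbb3 levels of AT1-like cells overlap between libraries.

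Erbb2, the partner receptor without a known ligand, differed little between the libraries. It was 24.4 CPM [22.2 to 26.7] and 25.3 CPM [23.6 to 27.2] in epithelium, a ratio of 1.04 [0.927 to 1.17], and 9.68 and 10.1 CPM in stroma, a ratio of 1.04 [0.794 to 1.37]. Within the epithelium it ran from 20.3 CPM in AT2-like to 35.8 CPM in AT1-like control cells and from 22.5 to 38.4 CPM with IL-1β, and DATP-like cells had 26.2 CPM [17.6 to 37.3], which overlapped both.

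Erbb3, the receptor of Nrg1, was an epithelial transcript. Epithelium had 45.4 CPM [42.4 to 48.5] in control and 53.8 CPM [51.2 to 56.4] with IL-1β, a ratio of 1.18 [1.09 to 1.29], with AT1-like cells highest at 74.7 and 80.4 CPM, AT2-like cells at 35.3 and 48.8 CPM and DATP-like cells at 53.2 CPM [40.7 to 68.3]. The stromal level of 2.20 and 4.84 CPM, from 30 and 46 UMIs, gave a called ratio of 2.20 [1.36 to 3.61]. These were 4.85% and 9.01% of the epithelial level, next to 3.87% to 4.58% and 7.44% to 8.47% for Sftpc, Sftpa1, Sftpb and Lamp3, which are AT2 genes. Without the mixed, macrophage and adipocyte clusters the stromal ratio was 1.96 and no longer called, and the part of released epithelial RNA was not tested.

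Stroma and epithelium differed in most members in both cultures. In control, 8 of 9 members were called between stroma and epithelium, 2 higher and 6 lower in stroma, against 39.2% of all genes (23.1% higher, 16.1% lower). In the IL-1β library 7 of 10 were called, 3 higher and 4 lower, against 38.5% (15.8% higher, 22.7% lower). Ereg was 25.3 [18.6 to 35.4] and 26.6 [23.4 to 30.3] times the epithelial level, Hbegf 0.245 and 0.249 times, Erbb2 0.398 and 0.399 times and Erbb3 0.0485 and 0.0901 times. The stroma to epithelium ratio of Egfr was 4.94 [4.18 to 5.85] in control and 32.2 [24.2 to 43.7] with IL-1β, that of Nrg1 1.47 [1.2 to 1.80] and 5.46 [4.58 to 6.53], and that of Areg 0.103 [0.0766 to 0.137] and 0.740 [0.691 to 0.793]. The ratios of Tgfa were 0.296 [0.215 to 0.402] and 0.0665 [0.0285 to 0.132] and those of Btc 0.414 [0.283 to 0.593] and 0.926 [0.710 to 1.19]. For these 5 genes the intervals of the control and IL-1β ratios did not overlap. The IL-1β epithelial Egfr level, from 52 UMIs, was 3.11% of the stromal level, near the 1.65% to 2.40% of the 4 matrix genes. Stromal Erbb3 in both libraries and stromal Tgfa with IL-1β stood at shares of the epithelial level near those of the AT2 genes. Epithelial Ereg was 3.95% and 3.76% of the stromal level, somewhat above the matrix genes. These Ereg, Egfr, Erbb3 and Tgfa ratios are therefore not exact folds of expression, and the part of released RNA was not tested. Without the Mmp10 cluster the IL-1β ratio of Nrg1 was 1.99 and no longer called, and that of Areg was 0.150. The IL-1β ratio of Btc was then 0.538, inside its control interval.

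A list of 50 other genes of the pathway was read beside the family. It held the remaining ligands and Erbb4, sheddases and their carriers, adaptors, RAS-MAPK members, feedback inhibitors and early and late target genes, and 46 had enough UMIs in stroma, Erbb4 not among them. There 1 was higher and 10 were lower in the IL-1β library and 35 were not called, with a median log2 ratio of -0.38 against -0.33 for all genes counted. As a share, 17.8% of all genes were called in stroma, 5.06% higher and 12.7% lower, and after scaling by the median ratio 7 pathway genes were called in place of 11. By role, 5 of 15 feedback genes, 3 of 12 targets, 1 of 5 adaptors and the 1 further ligand counted were lower, and none of 9 RAS-MAPK members or 4 sheddase genes was called.

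The higher stromal gene was Fosl1, an AP-1 subunit, at 12.1 CPM in control and 24.7 CPM with IL-1β, a ratio of 2.04 [1.67 to 2.51]. Next by interval came Ier3, Map2k1, Adam17 and Rhbdf2, with ratios of 1.44, 1.31, 1.18 and 1.26 that were not called. ADAM17 is the main sheddase of several of these ligands, and RHBDF2 helps it mature. At the other end stood Ccnd1 (cyclin D1) with 0.305 [0.275 to 0.338], Egr1 (an immediate early factor) with 0.337 [0.309 to 0.367], Spry2 (a feedback inhibitor of receptor signalling) with 0.359 [0.325 to 0.397], Gab1 (an adaptor) with 0.324 [0.237 to 0.435] and Etv5 (an ETS factor) with 0.385 [0.326 to 0.453]. These 5 were lower in a stroma whose contractile markers were also lower, and the part of that change was not tested.

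In epithelium 2 of 46 pathway genes were higher, 1 was lower and 43 were not called, with a median log2 ratio of 0.09 against 0.06. Myc was 1.93 CPM in control and 6.33 CPM with IL-1β, a ratio of 3.28 [2.30 to 4.80], and Lrig3, of a family of receptor regulators, 1.72 and 4.98 CPM, a ratio of 2.90 [1.98 to 4.35]. Egr1, Jun and Ier3 followed with ratios of 1.78, 1.56 and 1.52 that were not called. Etv5 was 248 and 77.8 CPM, a ratio of 0.313 [0.298 to 0.329], and Spry2, Hras, Ccnd1 and Spry1 stood at 0.530, 0.574, 0.682 and 0.662. Etv5 was called lower in both compartments, whereas the Egr1 ratio lay below 1 in stroma and above 1 in epithelium with intervals apart.

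The genes whose levels over 19 clusters were most like a member were listed as a description. For Ereg these were Il1rl1, Gng2 and Aplp1, with Pearson's r of 0.976, 0.968 and 0.966, and for Areg Dyrk3, Cbarp and Inhbb, with 0.849, 0.844 and 0.834. Hbegf was nearest to Cav2, Pdgfa and Mpp5, with 0.943, 0.939 and 0.937. Erbb3 was nearest to Adgrg1, Cystm1 and Nkx2-1, with 0.991, 0.990 and 0.989, and Erbb2 to Bcr, Mgea5 and Tom1l1, with 0.95, 0.949 and 0.948. Lower values were reached for Nrg1 (Napg, Cdh13 and Tead1, with 0.838, 0.833 and 0.821) and Btc (Tmem9, Ngef and its chromosome 5 neighbour Areg, with 0.843, 0.834 and 0.820). The chromosome 5 neighbours did not share 1 pattern, since Ereg had r of 0.0521 with Areg and 0.235 with Btc. Epgn had too few UMIs for this. The clusters share libraries and the division into stroma and epithelium, and Tgfa was nearest to Agps, AU040320 and Ubxn2a, with 0.936, 0.936 and 0.923.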

How the data were processed

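Mouse organoid cells were profiled by 3′ droplet scRNA-seq in 1 library per condition. The authors deposited UMI counts per gene and barcode, made with Cell Ranger. The submitters' processing notes name Scanpy 1.3.6 and the builds GRCm38 and mm9. Reads counted to overlapping or antisense genes cannot be told apart here.

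From these counts, barcodes with over 500 and under 7000 genes and over 2000 UMIs were kept, as the study states. The libraries shared 11 barcodes. Scrublet scores marked 3 of 5142 cells (0.0583%), so doublets were in effect not removed. Cells were clustered with scanpy 1.11.5 and leidenalg 0.10.2 (50 components, 15 neighbours, resolution 1), leaving out the 10 members and 50 pathway genes. A cluster was epithelial when its Epcam level exceeded 50% of the overall level. Epithelial clusters took the class whose markers had a mean log2 fold of at least 1 (pseudocount 10 CPM), with at least 3 markers above and a leading marker found in 50% of cells. A cluster with no class at that fold was AT2-like when its AT2 markers lay at most 1 log2 unit below the other clusters on average. It also had to lack a leading marker of another class. The rest were unnamed. The markers were fixed but this naming rule was set after the clusters were seen, and the classes may differ from the study's.

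UMIs were summed per class and given as CPM with 95% Poisson intervals. Ratios had exact binomial intervals, with the limit of a 0 count set at 3 UMIs. Thinning to 5000 UMIs left out 52 control and 7 IL-1β cells. Since conditions had no replicate library, no p-value is given. All members are named, with the 5 highest and 5 lowest pathway genes per compartment by interval, and the 3 genes most correlated with each member having 200 UMIs, over clusters of at least 30 cells on log2(CPM + 10), of which those of Egfr are not reported here. Members and lists were chosen with earlier results of these data known. The ratio procedure was tested on simulated Poisson counts, the model that its intervals assume. These held no spread between cells or libraries, so the test covers the calculation and not the error between cultures. Alternatives changed cell filters, doublet removal, resolution, seed, separate clustering, genes used for clustering, scaling, weighting of cells, thinning, the UMI minimum and the fold, and 3 further exclusions and the class ratios within a library were added after seeing the data.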

Additional observations from a re-analysis of the deposited data

How the results depend on the processing

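No paired analysis was possible because each condition was 1 library. Of the ratios of single members recomputed under alternatives, 801 lay within the interval of the value reported, 122 moved outside it and 2 called ones changed sign. Nrg1 was -0.17 on the log2 scale in stroma without the Mmp10 cluster, and -0.43 in AT2-like cells when the control cluster led by Scgb1a1 was counted as AT2-like, both chosen after seeing the data. Among counts of called genes 133 stayed within 1.5 times of the value reported and 10 did not. Members called in AT1-like cells were 5, not 3, with totals without surfactant, mitochondrial and ribosomal protein genes, with the mean of each cell's CPM and with a 1.5-fold limit. Members called between AT1-like and AT2-like cells of the IL-1β library were 5, not 3, at resolution 2.0 and with libraries clustered separately and 6 at 1.5-fold, and between DATP-like and AT2-like cells 3, not 6, at resolution 2.0. Pathway genes called in stroma were 7, not 11, after scaling by the median ratio and 17 at 1.5-fold, and those in epithelium 10, not 3, at 1.5-fold. IL-1β to control ratios in DATP-like cells could not be had, since no control cell took that name. When the libraries were clustered separately 79 control and 272 IL-1β cells did. The DATP-like class had 102 cells as reported, 0 at resolution 0.5 and with every barcode kept, 2 control and 331 IL-1β cells at resolution 2.0, 124 IL-1β cells without the highest doublet scores, 31 control and 1 IL-1β cells with family genes kept for clustering and 25 and 1 with another random seed. AT1-like ratios could not be had at resolution 0.5 or with every barcode kept. Other scalings moved the higher share of calls in AT2-like cells from 71.5% to 60.3%. Depth limits Epgn, stromal Tgfa and epithelial Egfr, each resting on few UMIs.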
